A study of Mus musculus with 2 samples.

Results

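The genes described here are those of the mouse MHC, or H2 complex, and the partners that load and display peptides with it. They were found by name in the table of gene expression: every row whose name starts with H2-, plus B2m, Tap1, Tap2, Tapbp, Erap1, Cd74, Ciita, Cd80, Cd86 and Cd40. This gave 52 rows of the 23235 in the table. By role, 30 rows were class I heavy chains, 5 class I partners, 12 class II genes, 3 costimulatory genes, and 2 were H2- rows (H2-Ke2 and H2-Ke6) that encode no MHC chain.

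Class I molecules consist of a heavy chain and beta 2 microglobulin, and they display peptides of cytosolic proteins to CD8 T cells after those peptides have been cut by the proteasome, carried into the endoplasmic reticulum by the TAP transporter and trimmed there. Class II molecules consist of an alpha and a beta chain, travel with the invariant chain Cd74 to endosomes, exchange it for peptides with the help of H2-DM, and present to CD4 T cells. In the blood system nearly all nucleated cells carry class I, whereas class II is known mainly from B cells, dendritic cells and activated macrophages, where the coactivator Ciita switches it on.

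RNA was sequenced from C57B6 mouse bone marrow progenitors, depleted of lineage-positive cells, that had been transformed by 2 MIGR1 retroviruses. One carried HA-tagged Hoxa9, fused to ER per the growth protocol but listed without ER among the sample characteristics, and the other Flag-tagged Meis1, and both groups carried both. All cells had been grown with IL3 and 100 nM of 4-hydroxytamoxifen (4OHT), the ligand that keeps Hoxa9-ER in the nucleus. The 4OHT group was then kept in 100 nM 4OHT for 72 h, and the EtOH group spent the same 72 h in the ethanol vehicle, which leads to the loss of nuclear Hoxa9-ER. Each group is 1 sample said to cover 2 biological replicates, and each gene has 1 FPKM value in it (fragments scaled to transcript length and library size), so that no value has a replicate error and no test could be made here.

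"Rose" and "fell" are therefore used only of genes with a q-value of at most 0.05 in the authors' own Cuffdiff comparison, and the direction is EtOH relative to 4OHT. Changes are written as log2((FPKM EtOH + 1)/(FPKM 4OHT + 1)), called the log2 change, which understates the change of low genes. Among 7820 genes that reached 5 FPKM in both groups, the middle log2 change was -0.06 (quartiles -0.24 and 0.14). Once the FPKM sums of both groups were made equal, that median was -0.17. Read totals are not known from FPKM, but some low rows hint at the relative depth. An EtOH to 4OHT ratio of 1.05 was shared, to within 0.001%, by 49 rows. Ratios of 2, 3 and 0.5 times that value stood in 10, 7 and 6 rows. If such rows hold whole fragments, 1 fragment was worth 1.05 times as much FPKM in EtOH as in 4OHT. These rows bear on replication too, since replicates scaled separately could give several such ratios per group, and whether the authors' q-values rest on separate replicates was not tested. The progenitor label was checked on 6 markers, of which 2 rose, 2 fell and 2 did not pass. Kit (7.39 FPKM in 4OHT and 10.1 in EtOH) and Myb (164 and 127) did not pass. Cd34 fell from 124 to 45.8 FPKM and Flt3 from 14.5 to 0.239, while Gata2 rose from 71.1 to 122 and Ptprc from 33.9 to 64.5. All but Flt3 stayed well above 1 FPKM in both groups.

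Withdrawal of 4OHT was accompanied by lower RNA of the peptide transporter and of 3 non-classical class I chains. The abundant classical chains H2-K1 and H2-D1 had lower values in EtOH (log2 change -0.36 and -0.29) that did not pass the test. Beta 2 microglobulin (0.06) did not pass either. Class II genes were split: Cd74 rose, and H2-Ob, H2-DMa and H2-Eb2 fell. Of the 52 rows 29 reached 1 FPKM in either group, 10 were listed at 0 in both, and 32 had a test by the authors. Of those 32, 2 rose and 9 fell, and the 11 called rows make 34.4% of the tested ones against 22.5% over all 11865 genes tested. By direction, 28.1% of the tested members fell against 10.5% of all genes, and 6.25% rose against 12.0%. These shares describe the members and were not tested against the rest of the table. With the authors' second rule, which also asks for a ratio of 1.5 in either direction, 8 of 32 members (25%) passed against 17.1% of all genes, and at a q-value of at most 0.01 it was 8 of 32 (25%) against 16.1%.

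**Figure D1:**
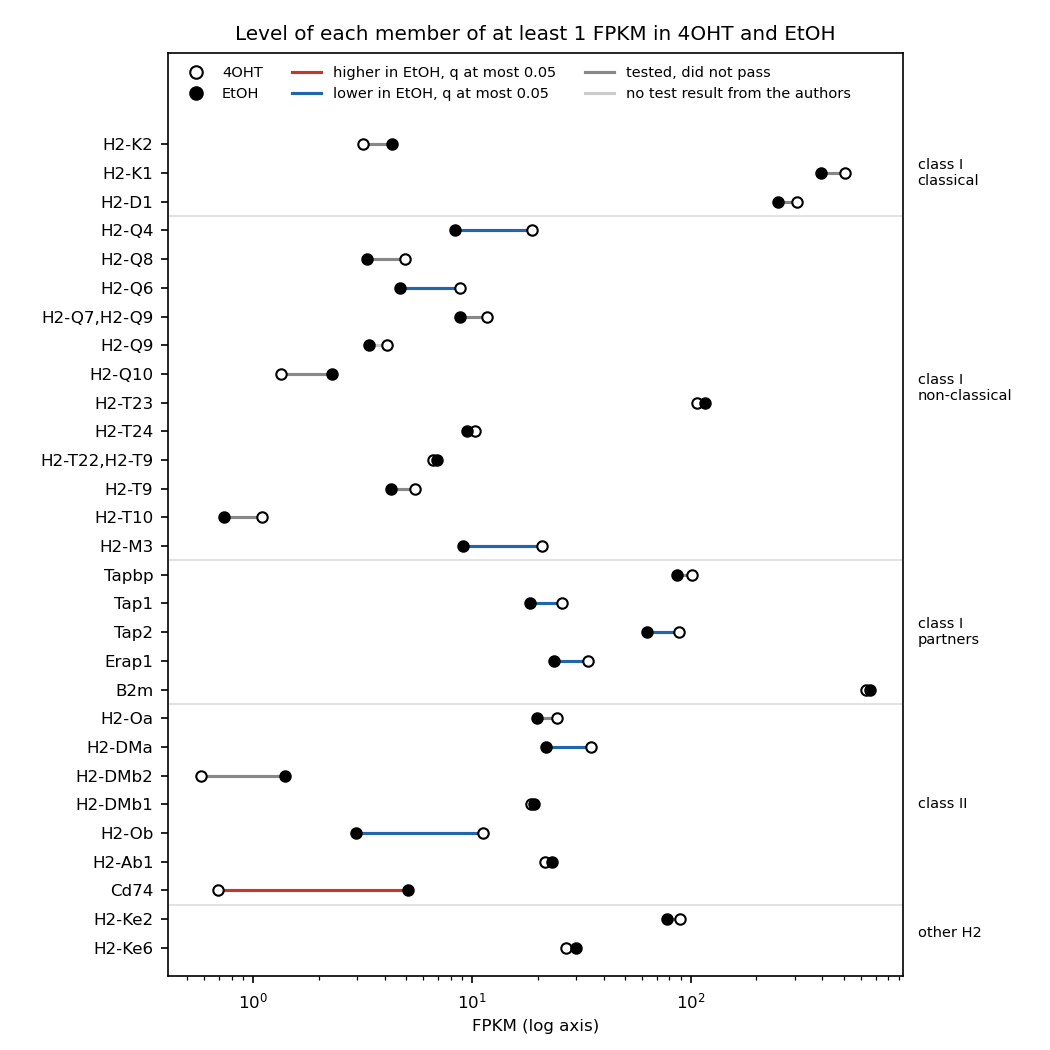
FPKM (log axis) of each of the 29 members that reached 1 FPKM in either group, with an open circle for 4OHT and a filled circle for EtOH, 1 value each and no error. H2-K1, H2-D1 and B2m lie far to the right of all class II genes, and the line of Cd74, from 0.690 to 5.12 FPKM, is the only one in the colour of a rise.

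**Figure D2:**
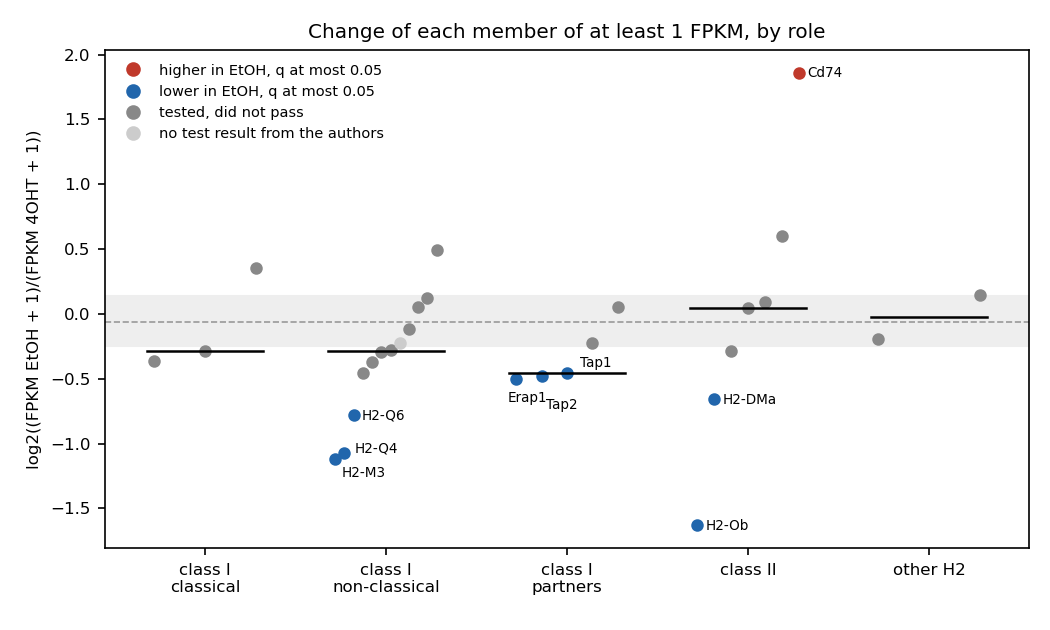
Log2 change of the same 29 members by role, 1 point per row of the table, with the median of each role as a black line, the quartiles of all genes of at least 5 FPKM in both groups as a grey band and their median of -0.06 as a dashed line. The medians of the class I roles lie below the band, that of class II at 0.05 lies inside it, and H2-Ob (-1.63) and Cd74 (1.86) are the points farthest from it.

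The classical heavy chains H2-K1 and H2-D1, the chains that present most peptides to CD8 T cells, were among the most abundant RNAs of the group. H2-K1 lies on chromosome 17 at 34132957 to 34137278 on mm9, the build of the expression table. It stood at 506 FPKM in 4OHT and 394 in EtOH. H2-D1 stood at 307 and 252 FPKM. Both values were lower in EtOH, and neither difference passed (q = 0.0662 and 0.159, the authors' deposited table). Together these 2 rows held 79.8% of the heavy chain FPKM in 4OHT and 77.9% in EtOH. H2-K2, a close relative beside H2-K1, lay at 3.18 and 4.34 FPKM and did not pass. Over all 30 heavy chain rows the summed FPKM was 1018 in 4OHT and 829 in EtOH, a difference of -18.6%. Since FPKM is scaled by length, the heavy chain sum can be set beside B2m, and the ratio was 1.61 in 4OHT and 1.26 in EtOH.

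Among non-classical heavy chains 3 of 11 tested rows fell and 0 rose (10.5% and 12.0% over all genes tested). Over all 14 tested heavy chains the counts were 3 and 0. On mm9 the 3 that fell lie on chromosome 17, H2-M3 at 37407179 to 37411430, H2-Q4 at 35516562 to 35521619 and H2-Q6 at 35561822 to 35565306. H2-M3, which presents bacterial peptides that begin with formylmethionine, fell from 21.03 FPKM in 4OHT to 9.16 in EtOH (log2 change -1.12). H2-Q4, a Qa-family chain, fell from 18.8 to 8.42 FPKM (-1.07). H2-Q6 fell from 8.82 to 4.71 FPKM (-0.78). The authors' deposited table lists q = 2.64e-07, 2.2e-07 and 0.0119 for these 3 genes. H2-M3 shares little sequence with other genes, 0.576% of its 50-base words, but H2-Q4 and H2-Q6 share 36.4% and 35.0%, so their own levels are uncertain.

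The other H2-Q rows of at least 1 FPKM did not pass or had no test, and their values were lower in EtOH apart from H2-Q10. The joint row of H2-Q7 and H2-Q9 had 11.7 and 8.84 FPKM, H2-Q8 had 4.93 and 3.32, and the separate row of H2-Q9, which had too few data for the authors' test, 4.12 and 3.38. H2-Q10, a secreted chain known from liver, had 1.34 FPKM in 4OHT and 2.29 in EtOH. All 8 H2-Q rows summed to 50.01 FPKM in 4OHT and 31.3 in EtOH.

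No H2-T row was called. H2-T23, which encodes Qa-1, the ligand of the inhibitory receptor NKG2A, was the third most abundant heavy chain, with 107 FPKM in 4OHT and 117 in EtOH. H2-T24 had 10.3 and 9.46 FPKM. The joint row of H2-T22 and H2-T9 had 6.68 and 6.96 FPKM, the separate row of H2-T9 5.49 and 4.29, and H2-T10 1.102 and 0.734. These 5 rows summed, with H2-T3, to 131 FPKM in 4OHT and 138 in EtOH. H2-T22 and H2-T10, which are ligands of gamma delta T cells, share 53.5% and 50.4% of their words with other genes, each mostly with the other.

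The other 15 non-classical rows stayed under 1 FPKM in both groups. H2-Q1, H2-Q2, H2-T3, H2-Bl and H2-M5 had between 0.00960 and 0.232 FPKM, and H2-M10.2 was listed at 0 in 4OHT and at 0.0232 FPKM in EtOH. The remaining 9 rows were listed at 0 in both groups. These were H2-M1, H2-M2, H2-M9, H2-M11 and, of the H2-M10 group known from the vomeronasal organ, H2-M10.1, H2-M10.3, H2-M10.4, H2-M10.5 and H2-M10.6. H2-M3 was thus the one H2-M row of 12 with more than a trace of RNA.

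The promoters of class I heavy chains are shown because chains that fell and chains that did not pass share elements. They come from RefSeq (GRCm38.p6, a later build than that of the expression table), run 5′ to 3′ on the strand of the gene, and cover the 190 bases before the start. Capitals mark 3 motifs searched on both strands: a kappa B element (GGGATTNCC), an element of interferon response (TTTCACTT) and the Y box (ATTGG, or CCAAT on the other strand). H2-K1, for which the table holds 2 starts, is shown from the upstream one. H2-K1 and H2-D1 did not pass, and H2-Q4 and H2-M3 fell.
H2-K1, chr17:34000348-34000537, minus strand: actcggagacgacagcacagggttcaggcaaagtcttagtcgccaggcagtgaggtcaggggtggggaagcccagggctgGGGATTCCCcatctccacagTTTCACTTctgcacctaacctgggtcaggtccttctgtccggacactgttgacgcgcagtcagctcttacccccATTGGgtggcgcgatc
H2-D1, chr17:35262904-35263093, plus strand: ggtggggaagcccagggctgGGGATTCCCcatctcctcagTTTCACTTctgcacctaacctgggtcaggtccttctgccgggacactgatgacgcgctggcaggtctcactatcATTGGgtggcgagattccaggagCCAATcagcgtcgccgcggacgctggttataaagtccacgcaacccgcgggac
H2-Q4, chr17:35379427-35379616, plus strand: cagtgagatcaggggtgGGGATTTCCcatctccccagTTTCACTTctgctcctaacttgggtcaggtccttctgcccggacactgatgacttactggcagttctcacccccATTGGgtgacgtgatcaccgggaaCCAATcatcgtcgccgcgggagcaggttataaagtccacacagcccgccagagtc
H2-M3, chr17:37270044-37270233, plus strand: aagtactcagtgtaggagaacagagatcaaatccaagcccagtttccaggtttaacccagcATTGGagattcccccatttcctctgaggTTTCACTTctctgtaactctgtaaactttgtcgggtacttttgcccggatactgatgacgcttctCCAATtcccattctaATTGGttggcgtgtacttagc

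All 4 stretches hold the interferon element, at position -90 in H2-K1, -150 in H2-D1, -153 in H2-Q4 and -101 in H2-M3, counted from the RefSeq start. The kappa B letters were found in H2-K1, H2-D1 and H2-Q4. The counts that follow are over the whole RefSeq window, 250 bases before to 50 after each start, and a row counts if any of its starts has a match. Of the 22 heavy chain rows with a promoter in the RefSeq table, 9 held the interferon element, 5 the kappa B element and 19 the Y box, against 1.6%, 0.938% and 37.4% of all 32851 promoters. The motifs were chosen with these sequences in view, and matches of different motifs did not overlap (0 cases). A match is a description of the letters and not of binding.

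Of 5 class I partners 3 fell and 0 rose (10.5% and 12.0% over all genes tested). Tap1 fell from 25.8 FPKM in 4OHT to 18.5 in EtOH (log2 change -0.46), and its transporter partner Tap2 fell from 88.2 to 63.1 FPKM (-0.48). Erap1, the aminopeptidase that trims peptides in the endoplasmic reticulum, fell from 34.1 to 23.8 FPKM (-0.50). The authors' deposited table has q = 0.0161, 0.00472 and 0.00324 for them. None of the 3 reached the ratio of 1.5 that the authors' second rule asks for. Tapbp, or tapasin, which bridges the transporter and the heavy chain, had 102 and 86.9 FPKM and did not pass. B2m, the light chain, had 633 and 658 FPKM and did not pass either, with the values of both groups close together. Tap2 and Erap1 share 11.6% and 10.7% of their words with other genes, Erap1 with Cast.

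Tap1 and Tap2 are interleaved on chromosome 17 with Psmb9 and Psmb8, which encode inducible subunits of the proteasome, and all 4 fell by nearly the same amount. The order on the mm9 build is Psmb9, Tap1, Psmb8 and Tap2, between 34319044 and 34353266, with 0 other rows of the table inside. Psmb9 fell from 79.8 FPKM in 4OHT to 56.8 in EtOH, and Psmb8 from 152 to 107. Over the 4 genes the log2 change ran only from -0.51 to -0.46. The level differed far more between them than the change did, and the ratio of Tap2 to Tap1 FPKM was 3.42 in 4OHT and 3.40 in EtOH. Of the nearest members on either side, H2-DMb1 (0.05) did not pass and H2-Ob (-1.63) fell. Changes like that of the block were not confined to it: Erap1 on chromosome 13 (-0.50) and Thop1 on chromosome 10 (-0.51) also fell.

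**Figure D3:**
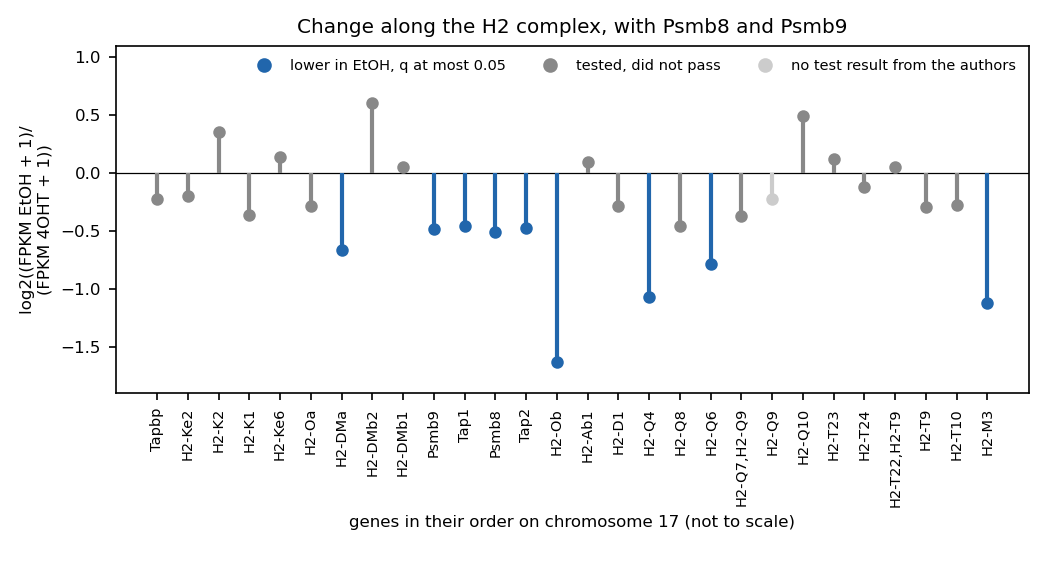
Log2 change of members of at least 1 FPKM, with Psmb8 and Psmb9, in their order along chromosome 17 (equal spacing, not to scale), as 1 stem per row of the table. The block from Psmb9 to Tap2 is a plateau between -0.51 and -0.46, and outside it H2-DMa, H2-Ob, H2-Q4, H2-Q6 and H2-M3 are the members that fell.

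Tap1 and Psmb9 start 226 bases apart in opposite directions in RefSeq. The window of Tap1 (250 bases before to 50 after its start, GRCm38.p6) is shown because it also holds the start of Psmb9. The capitals mark the Y box, here as CCAAT at position -222. The interferon and kappa B letters given above were not found in this window.
Tap1, chr17:34187306-34187605, plus strand: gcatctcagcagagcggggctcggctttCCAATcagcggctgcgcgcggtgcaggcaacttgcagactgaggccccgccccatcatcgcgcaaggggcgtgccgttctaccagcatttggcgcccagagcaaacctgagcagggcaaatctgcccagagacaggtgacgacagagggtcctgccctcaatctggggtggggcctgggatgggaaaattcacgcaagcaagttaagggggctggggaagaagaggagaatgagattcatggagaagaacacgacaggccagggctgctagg

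Class II RNA was uneven among chains that work as pairs. H2-Ab1, the beta chain of the I-A molecule, had 21.7 FPKM in 4OHT and 23.2 in EtOH and did not pass, while its alpha chain partner H2-Aa had 0.134 and 0.609 FPKM. H2-Ab1 was thus 162 times as high as H2-Aa in 4OHT and 38.1 times in EtOH. Both ratios, and the difference between them, rest on H2-Aa values under 1 FPKM and are uncertain. H2-Aa did not pass either (q = 0.0760, the authors' deposited table). H2-Eb1, a beta chain of I-E, had 0.234 and 0.481 FPKM and did not pass, and the related H2-Eb2 fell from 0.573 to 0.0600 FPKM (-0.57). H2-Ea-ps, the alpha chain gene that is inactive in C57BL/6 mice, was listed at 0 in both groups. Ciita, the master coactivator of class II, stayed at 0.0720 and 0.0347 FPKM and was not tested.

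Cd74, the invariant chain, rose from 0.690 FPKM in 4OHT to 5.12 in EtOH, which is 7.42 times as high (log2 change 1.86, q = 1.4e-07, the authors' deposited table). It remained a low RNA beside B2m at 658 FPKM. Markers of class II bearing cells moved with it in part. Among 8 macrophage markers Mrc1 (0.0839 and 1.92 FPKM), Csf1r (0.347 and 2.10) and C1qb (0.194 and 1.00) rose and Emr1 fell from 202 to 102 FPKM. The whole list summed to 203 FPKM in 4OHT and 108 in EtOH, nearly all of it Emr1, and the other 7 markers to 0.752 and 5.76. Of 9 dendritic cell markers Itgax rose from 0.105 to 0.522 FPKM and Flt3 fell from 14.5 to 0.239. Cd209a was listed at 0 in both groups, and no other marker of this list was called. The list summed to 14.9 and 1.29 FPKM. In 4OHT nearly all of this was Flt3, which is also a progenitor marker, so the sum mostly follows that gene. The 7 B cell markers summed to 1.2 and 1.78 FPKM, with Ms4a1 and Pax5 at 0 in both. The part of such cells in the rise of Cd74 was not tested. In bulk RNA, a change in the number of cells of a type and a change in RNA per cell cannot be told apart.

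The class II peptide editors H2-DM and H2-O held most of the class II FPKM, 90.04 of 113 in 4OHT and 65.4 of 94.9 in EtOH. Of their 5 rows 2 fell and 0 rose (10.5% and 12.0% over all genes tested). H2-Ob (chromosome 17, 34375850 to 34382853 on mm9), the beta chain of the inhibitor H2-O, fell from 11.3 FPKM in 4OHT to 2.96 in EtOH, which made 4OHT 3.81 times as high (log2 change -1.63, q = 2.86e-14, the authors' deposited table). Among the members it had the largest fall of all 52 rows on that scale. Its alpha chain partner H2-Oa had 24.4 and 19.9 FPKM and did not pass, so the ratio of H2-Oa to H2-Ob was 2.17 in 4OHT and 6.73 in EtOH. H2-DMa, the alpha chain of the peptide exchanger H2-DM, fell from 35.2 to 21.9 FPKM (-0.66, q = 0.00808, the authors' deposited table). The beta chain H2-DMb1 had 18.6 and 19.3 FPKM and did not pass. H2-DMb2, a near copy, had 0.581 and 1.40 FPKM and did not pass either. These copies share 22.7% and 25.9% of their words with other genes, mostly with each other.

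The promoters of class II genes from RefSeq (GRCm38.p6) are shown from position -150 to -31 because the chains have similar elements and unequal levels. Capitals mark the Y box (ATTGG or CCAAT) and the core of the X box (AGCAAC), searched on both strands. Regulatory factor X binds the X box and nuclear factor Y the Y box in textbook class II promoters. H2-Ob and H2-Eb2 fell, and the other 3 did not pass.
H2-Ob, chr17:34238755-34238874, plus strand: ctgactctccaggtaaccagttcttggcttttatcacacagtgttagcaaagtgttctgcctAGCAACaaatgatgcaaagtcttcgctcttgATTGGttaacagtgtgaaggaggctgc
H2-Oa, chr17:34092229-34092348, plus strand: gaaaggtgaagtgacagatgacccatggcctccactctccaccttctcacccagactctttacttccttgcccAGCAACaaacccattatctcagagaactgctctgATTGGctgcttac
H2-Eb1, chr17:34305717-34305836, plus strand: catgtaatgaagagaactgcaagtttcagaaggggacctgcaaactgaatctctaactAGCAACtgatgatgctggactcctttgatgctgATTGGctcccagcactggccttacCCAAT
H2-Eb2, chr17:34325525-34325644, plus strand: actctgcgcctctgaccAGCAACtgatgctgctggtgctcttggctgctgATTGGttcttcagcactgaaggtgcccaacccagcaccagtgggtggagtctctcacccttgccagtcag
H2-Aa, chr17:34287854-34287973, minus strand: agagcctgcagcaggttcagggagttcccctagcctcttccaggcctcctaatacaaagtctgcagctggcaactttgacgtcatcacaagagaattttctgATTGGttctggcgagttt

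All 5 stretches hold a Y box, at position -57 in H2-Ob, -43 in H2-Oa, -59 in H2-Eb1, -100 in H2-Eb2 and -48 in H2-Aa. The X box core was found upstream of it in H2-Ob (-88), H2-Oa (-77), H2-Eb1 (-92) and H2-Eb2 (-133), and its exact letters were not found in H2-Aa. Over the whole window from 250 bases before to 50 after the start, 8 of the 8 class II genes counted held the Y box and 4 the X box core. The Y box and the X box core stand in 37.4% and 14.8% of all such windows. Chromosome 18, where Cd74 lies, was left out of the counts of members. H2-DMa counts through 1 of its 2 starts, with a Y box at -198, and its other start has 0 matches. H2-Ab1 and Cd74 are among the 15 members with no promoter shown or counted.

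Class I and class II can be set side by side. Of 19 tested class I genes, heavy chains and partners together, 6 fell and 0 rose. Of 10 tested class II genes 3 fell and 1 rose. A similar part of each class thus fell, and over all genes tested 10.5% fell and 12.0% rose. The median log2 change of the 20 class I genes that reached 1 FPKM was -0.29, and that of the 7 class II genes was 0.05. The same median over all 11022 genes that reached 1 FPKM was -0.06. The summed FPKM of all 12 class II rows was 113 in 4OHT and 94.9 in EtOH, a difference of -16.3%. For class I heavy chains with their partners the difference was -11.7%, and for the heavy chains alone -18.6%. The peptide-presenting chains of class II alone, mostly H2-Ab1, summed to 22.6 FPKM in 4OHT and 24.4 in EtOH, a difference of 7.65%. The median and the sum of class II differ in sign, since H2-DMa, H2-Ob and H2-Oa carry much of the sum. The sign of the class II median also turned when the FPKM sums were made equal (-0.064) and when only members of 5 FPKM or more were kept (-0.12). Without members that share over 10% of their words or have no sequence it was -0.28. In those fewer rows the class I heavy chains had -0.24 and the partners -0.20. The difference in medians between the classes thus depended on which rows were kept, and the part of shared sequence in it was not tested.

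Costimulatory genes, whose products give T cells the second signal, were nearly silent. Cd80 rose from 0.200 FPKM in 4OHT to 0.775 in EtOH (q = 0.0103, the authors' deposited table). Cd40 had 0.0406 and 0.372 FPKM and Cd86 0.00812 and 0.00890, and neither was tested. All 3 stayed under 1 FPKM in both groups. The H2- rows outside the MHC families did not pass: H2-Ke2, a prefoldin subunit now named Pfdn6, had 89.8 and 78.3 FPKM, and H2-Ke6, a steroid dehydrogenase, 26.9 and 29.8.

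Sequence shared with other genes bears on these values, because fragments that match several genes cannot be assigned with certainty. Not all of it lies between copies. Erap1 shared 10.7% of its words with Cast, Tap2 9.22% with Gm15821 and Tapbp 20.3% with Gm19412. H2-Oa shared 15.5% with BC051537, a row whose locus overlaps its own. Words shared between transcripts that overlap at 1 locus were not set apart from words shared between copies. A transcript sequence was found for 49 of the 52 rows in GENCODE M21, and H2-Q8, H2-Q9 and H2-T9 as rows of their own were not matched. Of the 49, 20 share over 10% of their words with other genes, and 4 of these were called: H2-Q4, H2-Q6, Tap2 and Erap1. Without the rows that share more, or have no sequence, the counts were 2 risen and 5 fallen. Some loci overlap in the table: H2-D1 and H2-Q1 have the same interval, as do H2-T23 and H2-T24. The separate row of H2-Q9 has the interval of the joint row of H2-Q7 and H2-Q9. The separate row of H2-T9 has that of the joint row of H2-T22 and H2-T9. H2-Q9 and H2-T9 thus stand in a joint and a separate row each, and both rows enter the counts of rows and the sums above.

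**Figure D4:**
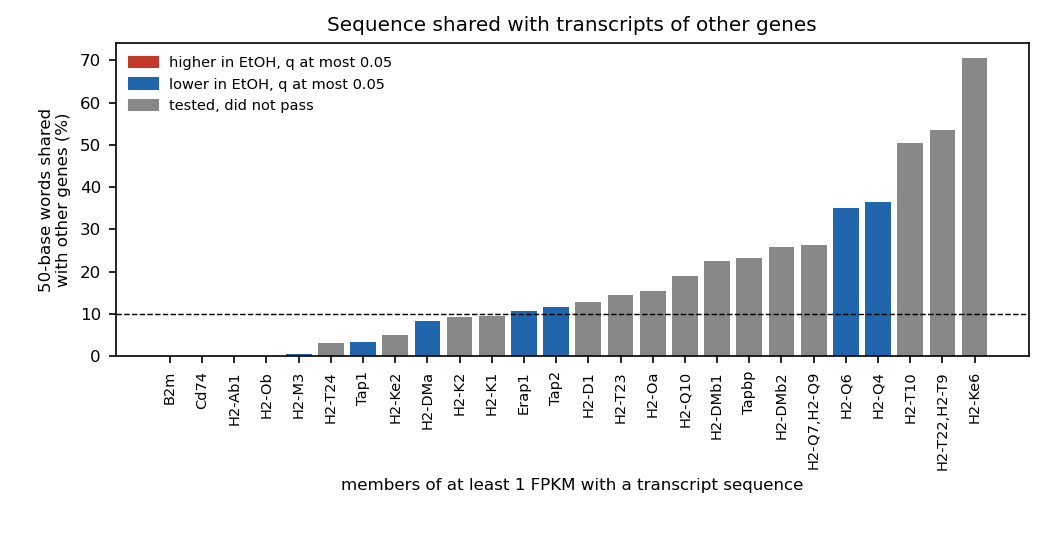
Percent of the 50-base words of each member of at least 1 FPKM that also occur in transcripts of other genes, as bars from 0 in the colour of the authors' call, with a dashed line at 10%. B2m, Cd74, H2-Ab1 and H2-Ob stand at 0, and the fallen genes H2-Q6 and H2-Q4 at 35.0% and 36.4%.

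Other genes of the pathway were counted in 7 lists of 76 genes, of which 72 were found in the table and 64 tested, with 11 risen and 14 fallen. Over all genes tested 12.0% rose and 10.5% fell, and each count below is to be read beside these shares; no list was tested against them. In the proteasome list 2 of 9 fell and 0 rose, namely Psmb8 and Psmb9, and the list median was -0.22. The third inducible subunit, Psmb10, had 32.4 and 27.4 FPKM and did not pass, nor did the standard subunits Psmb5, Psmb6 and Psmb7. In the list of class I loading and trimming 3 of 12 fell and 1 rose, with a median of -0.19. The peptidase gene Thop1 fell from 15.5 to 10.6 FPKM, the translocon subunit Sec61a1 from 179 to 132 and the chaperone calnexin, Canx, from 203 to 153. Npepps, a cytosolic aminopeptidase, rose from 40.0 to 53.5 FPKM.

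Regulators of class I and of interferon signalling went in both directions, with 4 of 13 tested genes risen, 2 fallen and a list median of 0.24. Nlrc5, the coactivator of class I genes, fell from 1.30 FPKM in 4OHT to 0.463 in EtOH (log2 change -0.65, q = 6.25e-06, the authors' deposited table). The interferon gamma receptor went the other way: Ifngr1 rose from 65.7 to 163 FPKM and Ifngr2 from 14.99 to 21.7. Socs1, a feedback inhibitor of this pathway, rose from 17.6 to 39.1 FPKM. Irf1, an interferon response factor, had 13.5 and 16.1 FPKM and did not pass. Ifnar1, named after its values were seen, fell. Jak2 had 11.01 and 41.7 FPKM and a failed test.

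The factors that bind class II promoters did not pass, 0 of 7 in either direction, and Rfx5 stood at 7.49 and 6.15 FPKM. Of 9 tested genes of class II processing 5 rose and 1 fell (12.0% and 10.5% over all genes), with a median of 0.45. Ctss, the cathepsin that cuts the invariant chain, rose from 1.43 to 7.01 FPKM (log2 change 1.72). Ctsh, another cathepsin, rose from 15.5 to 31.98 FPKM, the endosomal protease gene Lgmn from 0.488 to 1.43 and the tetraspanin gene Cd63 from 739 to 1185. Ctsb, which rose, and Ctsl, which fell, were named after their values were seen. Ifi30, a reductase that unfolds antigens, had 67.4 and 57.5 FPKM and did not pass.

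Of 7 tested class I-like genes outside the H2 complex 4 fell and 0 rose (10.5% and 12.0% over all genes), and the median of the 5 that reached 1 FPKM was -0.78. Fcgrt, the neonatal Fc receptor, fell from 4.98 to 1.74 FPKM (log2 change -1.13). Cd1d1, which presents lipids to NKT cells, fell from 10.1 to 5.03 FPKM (-0.88), and Mr1, which presents vitamin B metabolites to MAIT cells, from 8.26 to 4.38 (-0.78). Azgp1, a secreted relative, fell from 2.22 to 1.05 FPKM. Among other costimulatory genes 1 of 7 tested rose and 2 fell. Cd274, which encodes PD-L1, rose from 11.5 to 17.98 FPKM. Cd48, a ligand of the receptor 2B4, fell from 166 to 57.8 FPKM, and Tnfsf9, the ligand of 4-1BB, from 11.2 to 5.17.

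**Figure D5:**
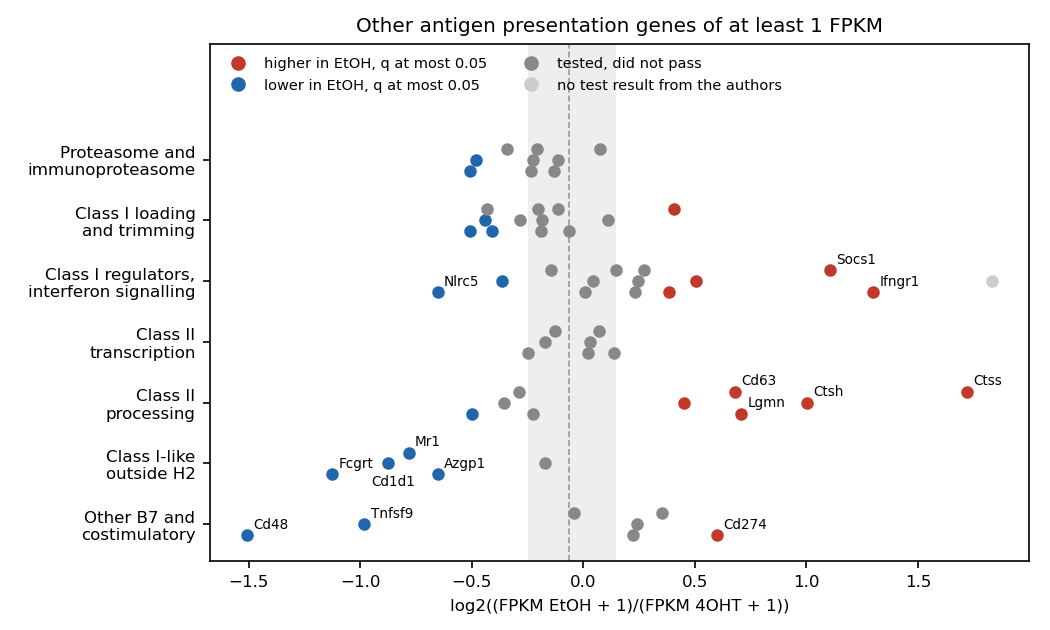
Log2 change of the other antigen presentation genes of at least 1 FPKM, 1 point per gene and 1 line of points per list, over the quartiles (grey band) and median (dashed line) of all genes of at least 5 FPKM in both groups. The class I-like genes lie left of the band apart from 1, the class II transcription factors lie near it, and Ctss is the called gene farthest to the right.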

How the data were processed

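RNA was sequenced from 1 sample per group, 4OHT and EtOH, each covering 2 biological replicates per the labels. The authors deposited FPKM values, 1 per gene and group, with a p-value, a q-value and a ratio of EtOH over 4OHT for each gene, per the file headers. Per the submitters' processing notes the tools were Cuffdiff 2.0.2, Bowtie2 2.0.0.7 and CASAVA 1.8.2, and the build was mm9. Not given in the sources used here are the annotation, the strand setting, and how replicates and fragments matching several genes were handled.

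An FPKM value depends on the other RNAs of its library. The authors' test could be used for 11865 rows, and their q-values were adjusted over all of them. It is unknown whether the replicates entered it separately. Depth is unknown, and no counting interval is given.

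From the deposited values log2 changes were computed with a pseudocount of 1 FPKM, in Python 3.11.15 with pandas 2.3.3 and numpy 2.4.6. The code of this step and of the word comparison was run on simulated data with known answers. That check does not bear on the calls, sums or medians. Every member of at least 1 FPKM in either group is named, and from each list up to 4 called genes with the largest change, plus Nlrc5, Rfx5, Irf1, Psmb8 and Psmb9; 1 further gene of this rule is not reported here. Other names are for background or stated as such. The members and lists were chosen with earlier results of these data known. March1 and March8 were not used, because a spreadsheet had turned such names into dates, and Sppl2a and Cd58 were not matched. Words of 50 bases were compared, on both strands, between transcripts of GENCODE M21, whose coordinates were not used. Promoters of 37 members were counted, with chromosome 18 left out, and mm9 coordinates count starts from 1.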

Additional observations from a re-analysis of the deposited data

How the results depend on the processing

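No paired analysis was possible because each group has 1 value per gene, and for the same reason no replicate could be left out. At a q-value of at most 0.01, 1 member rose, and 7 of the other pathway genes rose and 7 fell. With a ratio of at least 1.5 as well, these pathway counts were also 7 and 7, and among genes of at least 1 FPKM 1 member rose. Without rows that share over 10% of their words or have no sequence, 5 members fell. The median log2 change of class I heavy chains was -0.39 with the FPKM sums made equal (scaling), -0.17 with a pseudocount of 5 and 0 over all members with no filter, where 9 rows listed at 0 enter. The median of class I partners was -0.57 with scaling and -0.20 without shared rows, which leaves B2m and Tap1. The median of class II was -0.064 with scaling, -0.12 at 5 FPKM or more and -0.28 without shared rows. The log2 ratio of summed FPKM went from -0.30 to -0.42 with scaling for class I heavy chains. For class II it went from -0.26 to -0.38 with scaling and to -0.36 without shared rows. No costimulatory gene reached 1 FPKM, so the alternatives of their median were run with no filter: 0.40 became 1.55 with a pseudocount of 0.1 and 0.092 with 5, and centring, other filters and sequence sharing were not run. Of 29 named members, 0 called ones changed sign under either pseudocount or scaling, and B2m, H2-Ab1, H2-DMb1 and the joint row of H2-T22 and H2-T9, which did not pass, turned negative with scaling.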
